A study of Homo sapiens with 6 samples.

Results

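Collagens are the triple-helical proteins of the extracellular matrix. The collagen genes described here are the rows of the gene count table named COL, a number, A and a number, with reads in the input libraries. The table held 44 such names among 56638 genes, and 43 had input counts. COL10A1, a chain of growth plate cartilage, was at 0 in all 6 libraries, and all of its span is shared with other annotated genes. The 43 genes were grouped by the protein they encode into 11 fibrillar chains, 6 basement membrane chains of type IV and 26 other chains.

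The cells were G401, a malignant rhabdoid tumor line that carries a loss of SMARCB1, a subunit of the SWI/SNF chromatin remodeler. They were treated for 3 days with DMSO, the solvent control, or with MAK683 at 3 µM, a compound that binds the EED subunit of Polycomb Repressive Complex 2 (PRC2). Chromatin immunoprecipitation sequencing was performed for H3K27me3 and for H3K4me3 beside an input without antibody, with 1 library for each treatment and antibody, 6 in all. No replicate exists, so no difference between treatments was tested, and all intervals below cover counting error only. SMARCB1 had 0 input counts in both treatments.

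Library totals ran from 13308099 counts (MAK683 H3K27me3) to 21281877 counts (DMSO H3K4me3). At these totals 3 counts, under which a gene cannot be told from 0, equal 0.141 to 0.225 CPM, the count scaled to the library total. The filters applied below were higher. Collagen genes took 0.621% of the DMSO H3K27me3 counts and 0.588% of those after MAK683. Their share was 0.307% and 0.333% for H3K4me3, and 0.439% and 0.446% for input.

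PRC2 places H3K27me3 on silent developmental genes, often over broad domains, whereas H3K4me3 marks active or poised promoters. Fibrillar collagens build the tension-bearing fibrils of bone, skin, tendon and cartilage. Type IV collagen forms the meshwork of basement membranes, and its genes lie in 3 head-to-head pairs, each sharing a stretch between divergent starts. The remaining chains decorate fibrils, form beaded filaments or anchor cells.

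Between the starts lie 126 bases for COL4A1/COL4A2, 418 for COL4A4/COL4A3 and 379 for COL4A6/COL4A5. Parts of these stretches are shown because the pairs differed in H3K27me3. Each part is the longest run free of annotated exons within at most 250 bases next to the plus-strand gene. They are given on the plus strand of GRCh37, 5′ to 3′, with each CG dinucleotide in capitals and without annotated exons. Starts come from RefSeq promoter windows. Each printed part was found once on its own chromosome in GRCh37, and other chromosomes were not searched. The COL4A1/COL4A2 part lies at chr13:110959505-110959604, the COL4A4/COL4A3 part at chr2:228029170-228029339 and the COL4A6/COL4A5 part at chrX:107682818-107683067.
COL4A1/COL4A2: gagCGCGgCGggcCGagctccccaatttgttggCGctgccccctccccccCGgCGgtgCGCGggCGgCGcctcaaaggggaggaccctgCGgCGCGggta
COL4A4/COL4A3: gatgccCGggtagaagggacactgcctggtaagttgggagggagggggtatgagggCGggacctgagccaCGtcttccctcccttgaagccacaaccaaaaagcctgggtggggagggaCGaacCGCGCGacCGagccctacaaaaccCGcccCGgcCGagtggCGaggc
COL4A6/COL4A5: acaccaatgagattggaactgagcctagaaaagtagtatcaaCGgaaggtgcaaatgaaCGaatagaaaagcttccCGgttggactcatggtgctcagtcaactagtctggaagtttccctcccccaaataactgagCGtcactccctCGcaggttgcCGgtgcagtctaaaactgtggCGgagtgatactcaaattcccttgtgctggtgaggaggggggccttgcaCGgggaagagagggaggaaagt

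The printed COL4A1/COL4A2 part held 14 CG in 100 bases and was 78% G or C. The printed COL4A4/COL4A3 part held 12 CG in 170 bases, or 7.06 per 100 bases, at 65.9% G or C. For COL4A6/COL4A5 there were 8 CG in 250 bases, or 3.2 per 100 bases, at 51.2% G or C. Over whole RefSeq windows of 300 bases, COL4A1 and COL4A2 held 45 CG each, COL4A4 29, COL4A3 24, COL4A5 8 and COL4A6 7. The median over 27305 genes was 14, with quartiles of 3 and 28, and 95.8% of windows held at least 1 CG. COL4A1 and COL4A2 thus stood at percentile 96.6 of all windows, COL4A5 at 39.9 and COL4A6 at 37.5. Windows were matched for 31 of the 43 collagen genes, too few for a comparison of the classes.

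The first question was how much of each mark lay on collagen genes in untreated cells. A level is the log2 ratio of the mark to input, both in CPM, so that 0 means as many reads as in input. Input allows for the greater number of reads on longer genes, but levels still went with gene length, as given below. All 43 genes passed the minimum of 100 counts in both inputs together, and all 43 had at least 10 counts in each mark. In DMSO cells 21 of 43 collagen genes were above input for H3K27me3, against 27.3% of the 21263 genes that passed. The median collagen level was -0.02, and that of all genes was -0.75. At least 2-fold enrichment was found for 6 members, COL6A3, COL4A1, COL4A2, COL15A1, COL4A6 and COL8A1, against 10.7% of all genes. At least 2-fold depletion was found for 5, COL11A1, COL3A1, COL1A2, COL5A2 and COL9A3, against 28.9%. The nearest members outside these limits were COL19A1 at 0.97 and COL16A1 at -0.97. Levels are relative to library totals, so a loss common to all genes would not appear in them. The study reported a massive depletion of H3K27me3 across the genome after MAK683, which these levels cannot show. After MAK683, 21 were again above input, against 28.5% of all genes. COL6A3, COL4A1, COL4A2 and COL15A1 were then at least 2-fold enriched, 4 genes against 6.71%, and COL11A1, COL5A2 and COL9A3 at least 2-fold depleted, 3 genes against 10.1%.

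The classes did not share a level, and with 1 library their difference was not tested. Type IV chains had a median H3K27me3 level of 0.79 with 5 of 6 genes above input. Fibrillar chains had a median of -0.84 with 4 of 11 above, and the other chains had -0.25 with 12 of 26 above. Within each class the range was broad, from -1.35 to 0.69 for fibrillar and from -1.04 to 1.57 for other chains. The medians of other and all collagen chains turned with the input minimum. Over the 32 collagen genes with at least 1000 input counts the H3K27me3 median was 0.52, with 0.58 for 20 other, 0.79 for 6 type IV and -0.36 for 6 fibrillar chains, against -0.77 for all genes with as many counts. Members of a class are different genes in the same libraries, so these medians describe the genes and are not replicates.

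**Figure D1:**
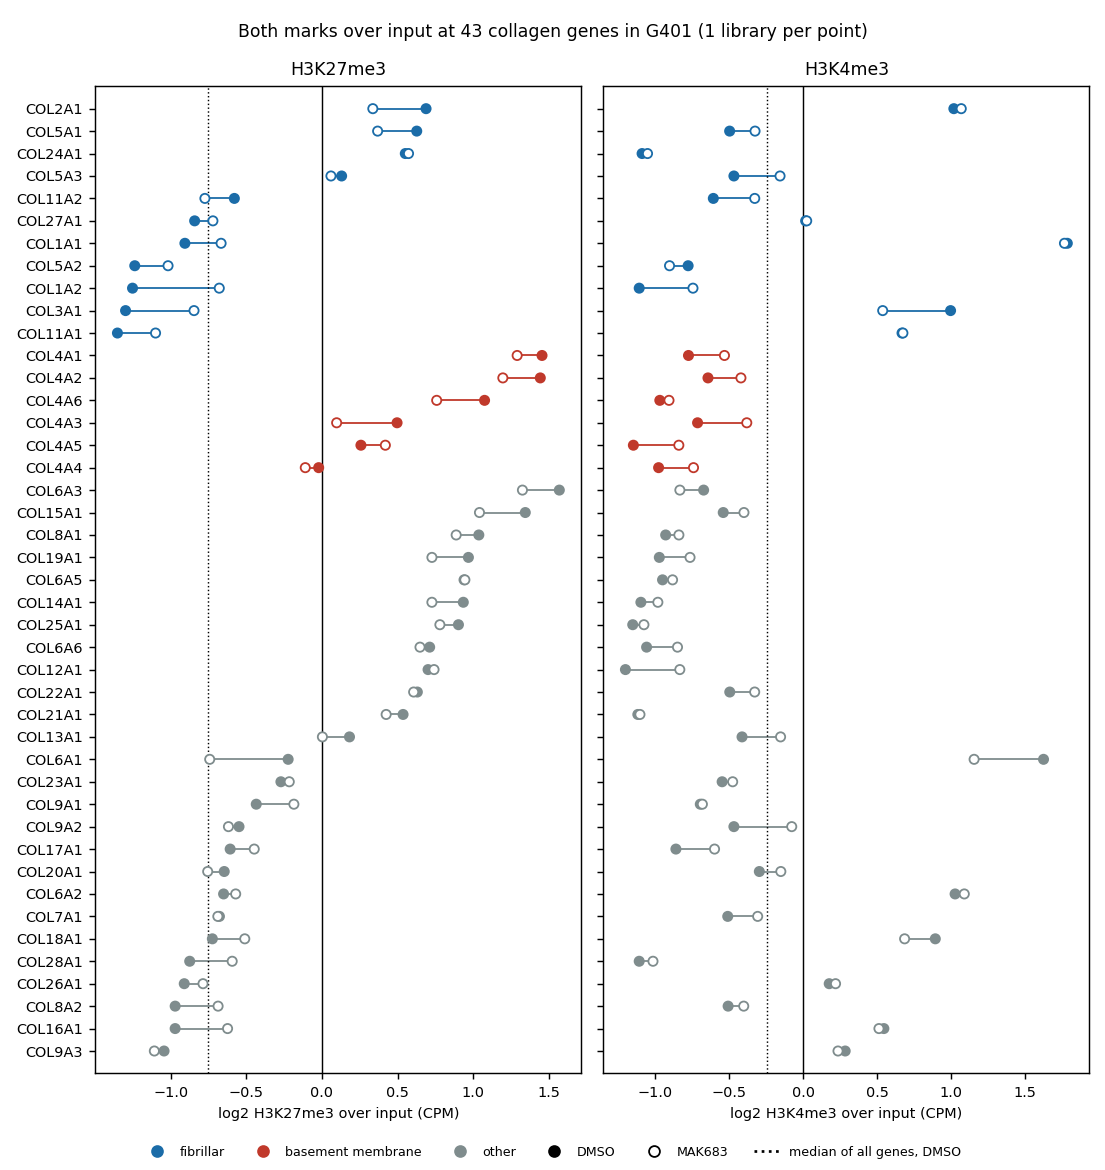
Log2 level over input (x axis) of H3K27me3 (left) and H3K4me3 (right) for each of the 43 collagen genes (rows), filled for DMSO and open for MAK683, coloured by class; dotted lines are medians of all genes in DMSO. Type IV chains lie mostly right of 0 for H3K27me3 and all left of 0 for H3K4me3, while COL1A1 has the highest H3K4me3 level at 1.79.

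COL4A1 and COL4A2 encode the chains of the type IV protomer found in nearly all basement membranes. COL4A1 (chr13:110801310-110959504, minus strand) had 6115 H3K27me3 counts in DMSO cells and 3687 after MAK683. Its H3K4me3 counts were 1445 and 1535, and its input counts 1959 and 2209. COL4A2 had 7352 and 4603 H3K27me3 counts, 1919 and 2211 H3K4me3 counts, and 2374 and 2945 input counts. Both were thus far above input for H3K27me3 and below it for H3K4me3. The H3K27me3 level was 1.46 for COL4A1 (counting interval 1.38 to 1.53) and 1.44 for COL4A2 (1.38 to 1.51) in DMSO, or percentiles 96.2 and 96.1 of all genes. Their H3K4me3 levels were -0.78 and -0.64.

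COL4A3, COL4A4 and COL4A5 encode the protomer of the glomerular basement membrane, and mutations in them cause Alport syndrome. For H3K27me3, COL4A3 had 1038 counts in DMSO cells and 578 after MAK683, COL4A4 had 2206 and 1465, and COL4A5 had 2001 and 1529. Over input, COL4A3 stood at 0.50 (0.35 to 0.64), COL4A5 at 0.26 (0.16 to 0.36) and COL4A4 at -0.02 (-0.11 to 0.07). COL4A4 was the type IV chain whose interval included 0. Input counts were 646 and 792 for COL4A3, 1967 and 2318 for COL4A4, and 1470 and 1676 for COL4A5. COL4A3 had 4.30 DMSO input counts per kb of gene against 12.2 for its neighbor COL4A4, and 37.6% of its span is free of other annotated genes.

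COL4A6, which joins COL4A5 in basement membranes around smooth muscle, had 4004 H3K27me3 counts in DMSO cells and 2431 after MAK683. With 1669 and 2106 input counts, its level was 1.08 (0.99 to 1.16) in DMSO and 0.76 in MAK683. COL4A5 and COL4A6 lie on the X chromosome, with 5.70 and 5.88 DMSO input counts per kb. H3K4me3 was below input at all 6 type IV genes, from -1.15 at COL4A5 to -0.64 at COL4A2.

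The partners of a divergent pair were compared because they share the stretch between their starts, of which a part is printed above. COL4A1 and COL4A2 differed by 0.01 in H3K27me3 level, while COL4A3 was 0.52 above COL4A4. COL4A5 was 0.82 below COL4A6, and their counting intervals did not overlap. H3K27me3 was therefore alike across one pair and uneven across the others, in 1 library each. With 37.6% of its span free of other annotated genes, COL4A3 may have a level that describes only part of the gene.

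The major fibrillar chains of bone, skin and vessels were on the low side of H3K27me3. COL1A1 had 163 H3K27me3 counts in DMSO cells and 142 after MAK683, and COL1A2 had 226 and 209. COL3A1 had 211 and 199 counts. Their levels in DMSO were -0.91, -1.25 and -1.30, each below the median of all genes. COL1A1 and COL1A2 encode the chains of one trimer, type I collagen, yet their H3K4me3 differed. COL1A1 had 1176 and 1136 H3K4me3 counts over 269 and 331 input counts, a level of 1.79 (1.60 to 1.99) in DMSO. COL1A2 had 277 and 294 over 474 and 491, a level of -1.11 (-1.33 to -0.90). COL1A2 was therefore below input for both marks, while COL1A1 had the highest H3K4me3 level of all 43 genes.

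COL2A1, the cartilage collagen, had 738 H3K27me3 counts in DMSO cells and 436 after MAK683, with 402 and 506 input counts. It had 1031 and 1069 H3K4me3 counts. Its DMSO levels were 0.69 (0.51 to 0.87) for H3K27me3 and 1.02 (0.85 to 1.19) for H3K4me3. No other collagen gene was above input for both marks, and 2.89% of all genes were. Its MAK683 levels were 0.34 and 1.07. Counts over a gene do not tell whether both marks sat on the same molecules.

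COL11A1 and COL11A2 encode type XI chains, which join type II in cartilage fibrils. COL11A1 had the lowest H3K27me3 level of the 43, -1.35, from 1148 counts in DMSO cells and 915 after MAK683 over 2575 and 2876 input counts. Its H3K4me3 counts were 5174 and 4617, the largest of any collagen gene, and its level was 0.67 in both treatments. COL11A2, with 319 and 216 H3K27me3 counts, was below input for both marks, at -0.58 and -0.61.

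COL5A1, COL5A2 and COL5A3 encode type V chains, which set the diameter of type I fibrils. COL5A1 had 4096 and 2742 H3K27me3 counts and a DMSO level of 0.63, against 831 and 670 and -1.24 for COL5A2. COL5A3, with 856 and 551 counts, was near input at 0.13 (-0.02 to 0.28). All were below input for H3K4me3, at -0.50, -0.78 and -0.47. COL24A1, a minor fibrillar chain, had 8177 and 5560 H3K27me3 counts and a level of 0.55, with H3K4me3 at -1.09. COL27A1 was below input for H3K27me3, at -0.84, and at input for H3K4me3, at 0.02 (-0.07 to 0.10).

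Among the other chains, the beaded filament genes of type VI diverged. COL6A1, COL6A2 and COL6A3 encode the chains of the classic type VI protomer. COL6A3 had 3799 H3K27me3 counts in DMSO cells and 2355 after MAK683 over 1124 and 1377 input counts, and its level of 1.57 (1.47 to 1.67) was the highest of all 43. COL6A1 had 230 and 158, and COL6A2 329 and 241, with levels of -0.22 and -0.65. For H3K4me3 COL6A3 was the lowest of the 3. COL6A1 stood at 1.63 and COL6A2 at 1.03, with 923 and 1171 DMSO counts, whereas COL6A3 stood at -0.67 with 890. The alternative chains COL6A5 and COL6A6 had H3K27me3 levels of 0.94 and 0.71 and H3K4me3 levels of -0.95 and -1.06.

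COL15A1 and COL18A1 encode the multiplexins, proteoglycan collagens of basement membrane zones. COL15A1 had 4632 H3K27me3 counts in DMSO cells and 2726 after MAK683 over 1602 and 1941 input counts, a level of 1.34. COL18A1, the source of endostatin, had 688 and 634 over 999 and 1324, a level of -0.72. For H3K4me3 they stood at -0.54 and 0.89. Once more 1 member was above input for H3K27me3 and the other for H3K4me3.

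Chains that associate with fibrils without forming them, the FACIT group, split along similar lines. COL19A1 at 0.97, COL14A1 at 0.93, COL12A1 at 0.70, COL22A1 at 0.63 and COL21A1 at 0.54 were above input for H3K27me3. COL9A1 at -0.43, COL9A2 at -0.55, COL20A1 at -0.65, COL16A1 at -0.97 and COL9A3 at -1.04 were below. H3K4me3 was above input at COL16A1 (0.55) and COL9A3 (0.28), and lowest at COL12A1 (-1.20), COL21A1 (-1.12) and COL14A1 (-1.10). In the short chain network group, COL8A1 of vessel walls and the cornea was at 1.04 for H3K27me3 and COL8A2 at -0.97.

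The transmembrane chains ranged from 0.90 at COL25A1 and 0.18 at COL13A1 to -0.27 at COL23A1 and -0.61 at COL17A1, the hemidesmosome collagen. COL25A1 had the most H3K27me3 counts of any collagen gene, 12200 in DMSO and 7731 in MAK683, over the longest span, 494 kb. COL7A1, the anchoring fibril chain, was at -0.68, COL26A1 at -0.91 and COL28A1 at -0.87. All of these genes but COL26A1, at 0.18, were below input for H3K4me3.

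H3K4me3 was scarcer on collagen genes than on genes in general. In DMSO 11 of 43 were above input against 43.8% of all genes, and the median was -0.61 against -0.25. At least 2-fold enrichment was found for 4 genes, COL1A1, COL6A1, COL6A2 and COL2A1, against 24.2% of all genes, with COL3A1 just outside at 0.997. At least 2-fold depletion was found for 9 genes, against 14.1%. After MAK683, 11 genes were above input, against 45.8%, and the same 4 were at least 2-fold enriched, against 22.6%. COL21A1, COL24A1, COL25A1 and COL28A1 were then depleted by as much, 4 genes against 8.62%. Class medians were -0.47 for fibrillar, -0.87 for type IV and -0.55 for other chains. H3K4me3 sits at starts and was counted over whole genes, and Spearman's rho between gene length and H3K4me3 level was -0.54 across the 43 genes and -0.38 across 16228 genes. Between length and H3K27me3 it was 0.42 and 0.07. The part of length in the class medians was not tested.

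Taking both marks, 20 collagen genes were above input for H3K27me3 alone, against 24.4% of all genes. Another 10 were above input for H3K4me3 alone, against 40.9%. COL2A1 had both, against 2.89% of all genes, and 12 had neither, against 31.8%. These calls are over whole genes, and a gene below input for H3K4me3 may still carry the mark at its start. The H3K27me3-only set held 5 type IV, 3 fibrillar (COL5A1, COL5A3 and COL24A1) and 12 other genes. The H3K4me3-only set held 4 fibrillar genes (COL1A1, COL3A1, COL11A1 and COL27A1), 6 other genes and 0 of type IV. Sets go by the sign of the level alone. The counting intervals of COL5A3 for H3K27me3 and of COL27A1 for H3K4me3 included 0. After MAK683 the numbers in each set were again 20, 10, 1 and 12, against 23.9%, 41.2%, 4.62% and 30.3% of all genes. Spearman's rho between the marks was -0.45 across the 43 genes and -0.47 across all genes, where both levels share the input library.

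**Figure D2:**
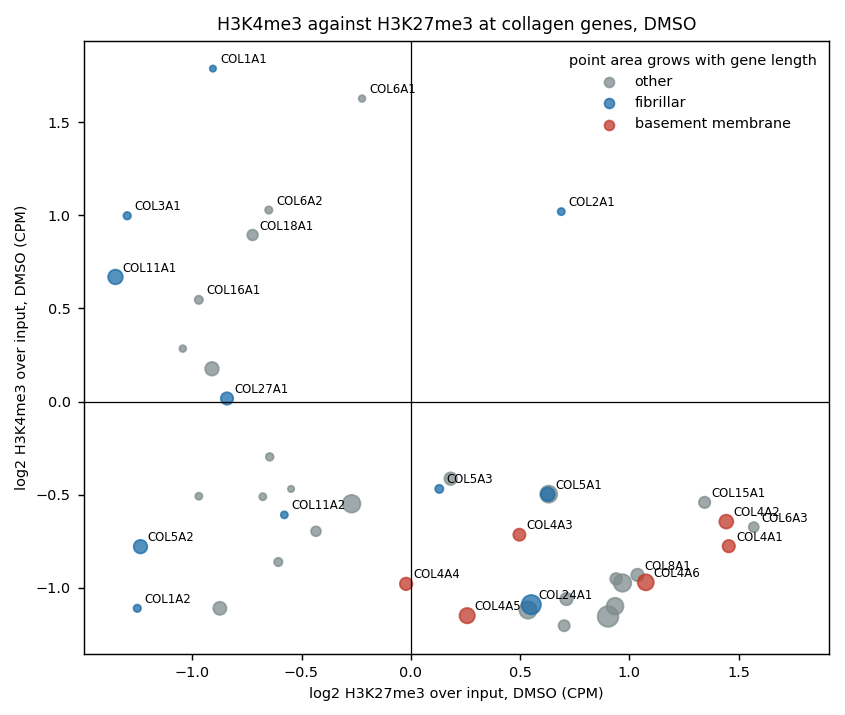
H3K4me3 level over input (y axis, log2) against H3K27me3 level over input (x axis, log2) in the DMSO libraries, 1 point per collagen gene, coloured by class, with area growing with gene length. COL2A1 is the 1 gene at upper right, type IV chains lie at lower right or on the vertical line, and COL1A1 and COL6A1 lie at upper left.

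Neighboring collagen genes did not always match. COL3A1 and COL5A2 lie tail to tail on chromosome 2, 19.2 kb apart, and were both low in H3K27me3, at -1.30 and -1.24. Their H3K4me3 differed, with 1154 DMSO counts and a level of 0.997 for COL3A1 but 1268 counts and -0.78 for COL5A2. COL19A1 and COL9A1, tail to tail on chromosome 6 and 3.57 kb apart, differed by 1.40 in H3K27me3. COL6A1 and COL6A2, 93.1 kb apart on chromosome 21, were both high in H3K4me3, and COL6A5 and COL6A6, 32.3 kb apart on chromosome 3, were both high in H3K27me3.

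The second question was what MAK683 did to these levels. A change is the log2 ratio of MAK683 to DMSO counts after scaling to library totals. The study added Drosophila chromatin as a spike-in, but its factors were not used here. A change therefore says whether a gene kept more or less of its mark than the rest of the same library did, and a loss common to all genes would not appear. As deposited, all 43 collagen genes had fewer H3K27me3 counts in MAK683 than in DMSO, in a library that was smaller overall (13308099 against 19162778 counts).

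No collagen gene was at least 1.5-fold higher or lower in either mark. Over all genes 11.7% were higher and 7.25% lower by that much for H3K27me3, and 10% and 4.86% for H3K4me3. The collagen genes nearest to the limit were COL3A1 (0.44) and COL4A3 (-0.32) for H3K27me3, and COL11A2 (0.44) and COL3A1 (-0.47) for H3K4me3. The smallest differences that counting alone allows were then sought, after it was seen that none reached 1.5-fold. For each gene the share of its counts that came from MAK683 was set, with its exact 95% Clopper-Pearson interval, against the share of the library totals. That share was 41.0% for H3K27me3, 48.0% for H3K4me3 and 53.7% for input.

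For H3K27me3 the interval lay below the share of the totals for 13 collagen genes, against 13.6% of all genes, and above it for 11, against 22.7%. The rule finds more genes at higher counts. Among genes with at least 1000 counts, 34.4% were below and 33.8% above, and collagen genes numbered 13 below and 8 above of 30. The classes leaned in different directions. Type IV chains numbered 4 below (COL4A1, COL4A2, COL4A3 and COL4A6) and 1 above (COL4A5), while fibrillar chains numbered 1 below (COL2A1) and 5 above (COL1A2, COL3A1, COL5A2, COL11A1 and COL27A1). The other chains numbered 8 below and 5 above. Over all genes, 83.8% of those above input for H3K27me3 in DMSO had a change below 0, against 20.7% of those below input. Among collagen genes these were 19 of 21 and 6 of 22. Level and change share the DMSO H3K27me3 library, and the part of the starting level in the lean of the classes was not tested.

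COL4A1 had 37.6% of its H3K27me3 counts in MAK683 (36.7% to 38.6%), COL4A2 38.5% (37.6% to 39.4%) and COL4A6 37.8% (36.6% to 39.0%). COL4A3 was lowest of the type IV chains at 35.8% (33.4% to 38.2%). COL4A5 was the exception at 43.3% (41.7% to 45.0%). Class medians of the change were -0.17 for type IV, 0.20 for fibrillar and -0.04 for other chains, with 0.09 over all genes. In all, 18 of 43 collagen genes had a change above 0, against 58.1% of all genes. Centering on that overall median moves every H3K27me3 change down by the same amount. COL15A1 at -0.24, COL19A1 at -0.21 and COL8A1 at -0.20 were the lowest of the other chains, and COL18A1 was the highest at 0.41.

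**Figure D3:**
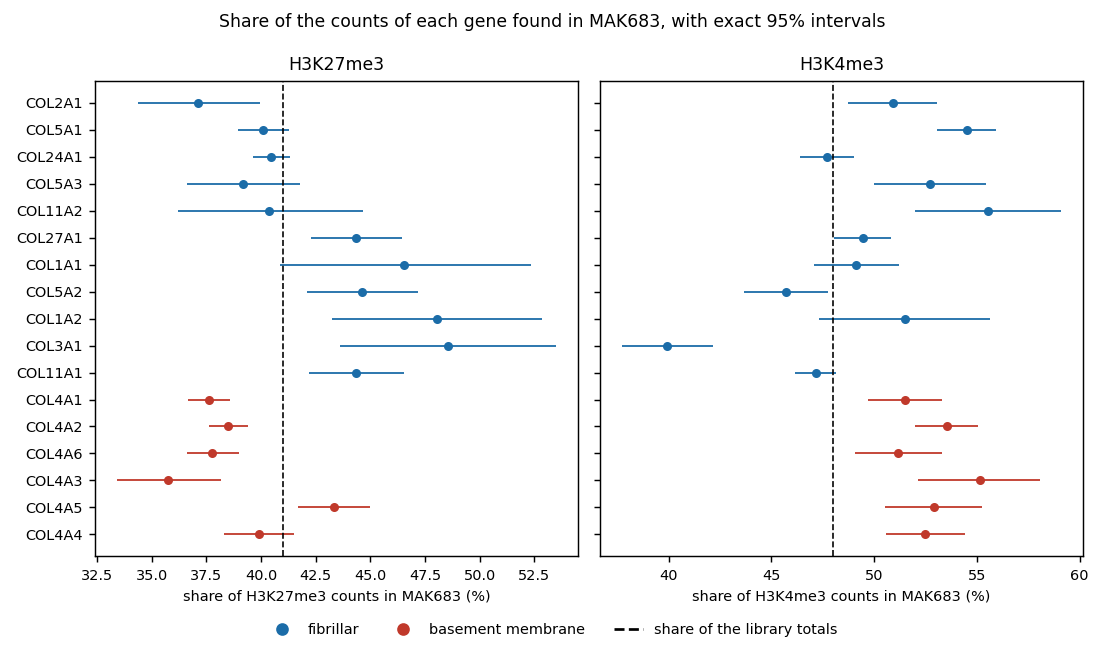
Share of the counts of each fibrillar and type IV gene that came from the MAK683 library (x axis, percent) for H3K27me3 (left) and H3K4me3 (right), with exact 95% intervals as bars and the share of the library totals as a dashed line. COL4A1, COL4A2, COL4A3 and COL4A6 lie left of the line for H3K27me3, all 6 type IV genes lie right of it for H3K4me3, and COL3A1 lies far left for H3K4me3 at 39.9%.

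H3K4me3 leaned the other way at type IV genes. All 6 had intervals above the share of the totals, where 19.5% of all genes did, or 22.1% of genes with at least 1000 counts. Of all genes above input for H3K27me3 in DMSO, as 5 of the 6 were, 77% had an H3K4me3 change above 0, a looser rule than the interval. COL4A3 had 497 counts in DMSO cells and 611 after MAK683, 55.1% of its counts (52.2% to 58.1%) and the largest change of the 6, 0.41. COL4A2, with 1919 and 2211 counts, changed by 0.32. COL4A5 had 837 and 940 (0.28), COL4A4 had 1261 and 1393 (0.26), COL4A1 had 1445 and 1535 (0.20), and COL4A6 had 1076 and 1128 (0.18). The 6 counts were higher in MAK683 even as deposited, although the MAK683 library was the smaller of the pair. Levels stayed below input in both treatments. The input intervals of COL4A2 and COL4A6 were above their share as well, and relative to input all 6 changes remained above 0.

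Over all collagen genes, 34 of 43 H3K4me3 changes were above 0 against 50.6% of all genes, and the median was 0.15 against 0.00. The interval lay above the share of the totals for 23 collagen genes, against 19.5% of all genes, and below it for 2, COL3A1 and COL5A2, against 21.3%. With at least 1000 counts, 21 of 38 collagen genes were above, against 22.1% of 12341 genes, and 2 below, against 38.9%. COL3A1 had 1154 H3K4me3 counts in DMSO cells and 767 after MAK683, while its input counts were 457 and 525. Its neighbor COL5A2 had 1268 and 1068. COL3A1 was also the collagen gene with the highest H3K27me3 change, 211 counts becoming 199 in a smaller library.

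Among fibrillar genes the H3K4me3 intervals of COL11A2, COL5A1, COL5A3, COL2A1 and COL27A1 were above the share of the totals. COL5A1 had 2085 counts in DMSO cells and 2498 after MAK683, a change of 0.38, but its input was also above, with 2330 and 3114 counts. COL11A2 had 347 and 434 counts. COL9A2 (0.39), COL13A1 (0.32) and COL17A1 (0.29) were the highest of the other chains, and COL9A1 (-0.15), COL16A1 (-0.10) and COL6A3 (-0.08) the lowest.

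Genes above input for H3K27me3 in DMSO were set against those below. Of the 21 collagen genes above input, 19 had an H3K4me3 change above 0, with a median of 0.20, and so had 77% of the 5802 such genes of the genome. Of the 22 below input, 15 had one, with a median of 0.08, against 40% of 15461 genes. Over all genes the medians were 0.16 above input and -0.06 below. The collagen median was thus above 0 on both sides of the split, and the all-gene median only among genes above input. Over all genes the lower and upper quartiles of the H3K4me3 level moved toward input. They were -0.81 and 0.95 in DMSO and -0.67 and 0.85 after MAK683. In DMSO 32 of the 43 collagen genes, with all 6 of type IV, were below input for H3K4me3. The part of this starting level in the H3K4me3 changes was not tested. The split and the change come from different antibodies, each with 1 library per treatment.

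Input moved little at most members. The median input change was 0.02, and 0 collagen genes passed 1.5-fold, where 7.9% of all genes were higher and 5.66% lower. COL6A1 was the extreme at 0.50, with 236 and 388 input counts. Its levels over input moved from 1.63 to 1.16 for H3K4me3 and from -0.22 to -0.74 for H3K27me3, although its changes in the marks themselves were 0.03 and -0.01. Input intervals lay above the share of the totals for 7 members, against 9.44% of all genes. These were COL4A2, COL4A6, COL5A1, COL6A1, COL9A3, COL18A1 and COL26A1. They lay below it for COL9A1 and COL28A1, against 7.78%.

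Directions were compared over 5 scales, which were library totals, counts as deposited, centering on the median of all genes, median-of-ratios size factors and the change relative to input. H3K4me3 was higher in MAK683 on all 5 for 24 of 43 genes, including all 6 type IV chains, and lower on all 5 for 5 genes. Over 28926 genes with marks and input counted, these shares were 32.4% and 39%. H3K27me3 was lower on all 5 for 22 genes, 5 of them type IV, 4 fibrillar and 13 other, against 33.8% of 28699 genes. It was higher on all 5 for 0 collagen genes, against 12.5%. Counts as deposited carry the smaller MAK683 library, which moves every H3K27me3 change down by the same amount, log2 -0.53.

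Genes that modify, export, cleave, crosslink or bind collagen were examined as the other part of the pathway. All 38 listed genes were found. GP6, a platelet receptor, was at 0 in all libraries, and LOX had 25 and 41 input counts, too few for a level. The median H3K27me3 level of the remaining 36 was -0.73, close to all genes, with 7 above input (27.3% of all genes), 1 at least 2-fold enriched (10.7%) and 7 at least 2-fold depleted (28.9%). Their median H3K4me3 level was 0.13, with 10 enriched (24.2% of all genes) and 2 depleted (14.1%) at least 2-fold. Over the 21 of them with at least 1000 input counts the H3K4me3 median was -0.23, below input. The collagen medians were -0.02 and -0.61, and the difference between the lists was not tested.

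Prolyl hydroxylation genes, whose products stabilize the triple helix, were low in H3K27me3 (median -1.07, 0 of 9 above input) and high in H3K4me3 (0.86, 8 of 9 above). P3H2 at -1.27 and P3H1 at -1.21 were the lowest in H3K27me3, followed by the receptor DDR2 at -1.16. SERPINH1, the collagen chaperone HSP47, had 1860 H3K4me3 counts in DMSO cells and 1477 after MAK683 over 139 and 180 input counts, and its level of 3.40 led the list. PPIB, a prolyl isomerase, followed at 3.17 and DDR1, a collagen-activated kinase, at 2.78. H3K4me3 was lowest at ITGA1 (-1.13), TLL1 (-1.002) and ITGA2 (-0.95).

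The H3K27me3 side of the list was led by ITGA2, an integrin subunit for collagen, with 2965 counts in DMSO cells and 1751 after MAK683 and a level of 1.21. PLOD2, a lysyl hydroxylase, followed at 0.97, and COLGALT2, which adds galactose to hydroxylysine, at 0.96. LOXL4, a lysyl oxidase relative, was the 1 gene of the list past 1.5-fold in a mark. It had 117 and 127 H3K27me3 counts (change 0.64), 138 and 224 H3K4me3 counts (0.81) and 176 and 256 input counts. Its input interval was also above the share of the totals, and relative to input the changes were 0.32 and 0.49, both under 1.5-fold. PLOD2 came next in H3K4me3 with 424 and 584 counts (0.58), and ADAMTS2, which removes the amino propeptide, with 0.46. The lowest H3K4me3 changes were LOXL3 (-0.29), MIA3 (-0.22) and P4HA1 (-0.22). For H3K27me3 the highest after LOXL4 were P3H3 (0.51) and ITGA10 (0.46), and the lowest were PLOD3 (-0.47), ITGA1 (-0.30) and PLOD2 (-0.28). Counting intervals lay below the share of the totals for 9 of the 37 counted genes in H3K27me3, against 13.6% of all genes, and above it for 6, against 22.7%. In H3K4me3 they lay below for 11, against 21.3%, and above for 15, against 19.5%. These shares depend on depth.

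**Figure D4:**
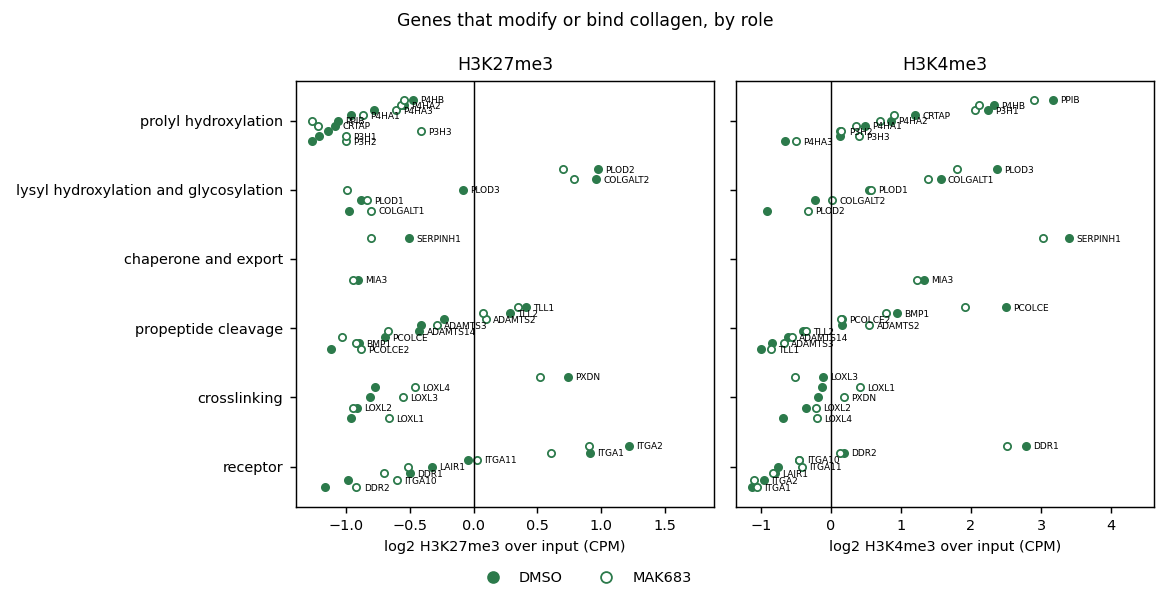
Log2 level over input (x axis) of H3K27me3 (left) and H3K4me3 (right) for 36 genes that modify or bind collagen, by role (rows), filled for DMSO and open for MAK683. Prolyl hydroxylation genes lie left of 0 for H3K27me3, and SERPINH1 and PPIB lie above 3 for H3K4me3 in DMSO.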

How the data were processed

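G401 cells given DMSO or MAK683 were profiled by ChIP-seq for both marks beside an input, 1 library per treatment and antibody. The authors deposited whole-number counts per gene. Per the labels and methods, reads were trimmed with Trim Galore 0.4.4, aligned to hg19 with Bowtie2 and assigned with featureCounts. Picard 2.23.6 was used against what the methods name repeat sequences, and their spike-in section names the removal of duplicates. The annotation and strand setting used for counting are not given in the sources used here. Drosophila chromatin was added as a spike-in per the methods, and the counts do not carry its scaling.

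Counts were divided by library totals. Levels were log2 ratios of CPM with a pseudocount of 0.05 CPM, for genes reaching 100 counts over both inputs. Changes used a pseudocount of 1 count, for genes reaching 10 counts in either library. The limits of 2-fold for levels and 1.5-fold for changes served as calls, and no p-value was computed because there is 1 library per group. Positions come from GENCODE release 44 on GRCh37, the build of hg19, and CG counts from RefSeq windows (GRCh38.p14). Type IV and fibrillar genes were named throughout, with the 5 highest and lowest other chains and the 3 highest and lowest modifiers in each readout, and neighbors within 100 kb. Genes named beside these complete a group, or illustrate it, and were chosen after their values were seen. Members and lists were chosen with earlier results of these data known. The computation was tested on simulated data (Python 3.11.15, numpy 2.4.6, pandas 2.3.3, scipy 1.17.1, matplotlib 3.10.9).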

Additional observations from a re-analysis of the deposited data

How the results depend on the processing

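No paired analysis was possible because each treatment and antibody had 1 library, and no replicate could be left out. Of 282 recomputed values, 237 stayed within 1.5 times (counts of genes) or within the rank interval of the median over genes, and 45 moved. No median was past a fold limit in the main setting, so a change of sign past a limit could not occur. The rank intervals were wide, from -1.30 to 0.63 for the fibrillar H3K27me3 level. Some medians that turned sign inside them count as stayed. Counts as deposited moved most. The median H3K27me3 change was then -0.56 for collagen, -0.33 for fibrillar, -0.70 for type IV, -0.57 for other chains and -0.48 for modifiers, with 18 collagen genes and 12 modifiers at least 1.5-fold lower and 0 modifiers higher. The fibrillar median, 0.20 by library totals, thus changed sign, as did that of modifiers, 0.04. The median H3K4me3 change was then 0.038 for collagen, 0.16 for type IV and 0.0014 for other chains, with 1 collagen gene lower. Centered on the median of all genes, the H3K27me3 change was -0.12 for collagen, -0.13 for other chains and -0.041 for modifiers, with 0 modifiers higher. With median-of-ratios size factors it was -0.14, -0.14 and -0.057, with 0 higher. Relative to input it was -0.030 for modifiers, with 1 lower, and 0 modifiers were higher in H3K4me3. These follow from the scaling itself. Shares of all genes past the fold limits were not computed under the changed settings, here or in the next paragraph. The counts of members therefore show only how far the calls depend on the setting.

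At a 2-fold limit 0 modifiers were higher in either mark. At the lower limit tried, 4 collagen genes and 6 modifiers were higher and 1 modifier lower in H3K27me3, and 4 collagen genes and 4 modifiers higher and 1 collagen gene lower in H3K4me3. With 1.5-fold for levels, H3K27me3 was higher at 15 and lower at 16 collagen genes, and higher at 5 and lower at 19 modifiers. H3K4me3 was then higher at 7 and lower at 22 collagen genes, and lower at 10 modifiers. With at least 1000 input counts, which leaves fewer genes, 2 collagen genes and 3 modifiers were 2-fold lower in H3K27me3, and 0 collagen genes and 1 modifier 2-fold higher in H3K4me3. The H3K27me3 median then turned from -0.02 to 0.52 for collagen and from -0.25 to 0.58 for other chains, and the H3K4me3 median of modifiers from 0.13 to -0.23. Without the input filter 2 modifiers were 2-fold higher in H3K27me3. With a pseudocount of 0.5 CPM, or with both inputs summed, 1 modifier was 2-fold lower in H3K4me3. Genes under 3 counts per library cannot be told from 0, and differences between chromatin preparations cannot be told apart from treatment.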
